A study of Mus musculus with 18 samples.

Results

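The H3K27ac peaks of mouse embryonic fibroblasts (MEF) were compared between wild-type (WT) cells and cells without Kap1, over all autosomes, to describe where acetylation was found in 1 of the genotypes alone. Every peak of one genotype that shared at least 1 bp with a peak of the other genotype was classed as shared, and every other peak as WT only or Kap1 KO only. The comparison held 70720 autosomal peaks, 35402 from WT and 35318 from Kap1 KO cells, of 107778 peaks in the 6 peak lists analysed or counted here. The other 4 lists held H3K9me3 in WT and Kap1 KO MEFs, and KAP1 and SETDB1 in Hepa 1.6 cells, a mouse hepatoma line. RNA-seq, liver and embryonic stem cell samples of the series were not analysed here.

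Both MEF samples were embryonic cells on a C57BL/6 background (C57BL/6J in the study's methods), immunoprecipitated with the same anti-H3K27ac antibody (Abcam ab4729). The WT sample carried both loxP-flanked, non-excised Kap1 alleles (Kap1 loxP/loxP), and the Kap1 KO sample lacked the gene. For the RNA-seq experiments, the study's methods state that the Kap1 KO cells were 1 clone and that both genotypes had been passaged repeatedly. Whether the chromatin came from this clone was not stated, so that clone, passage and genotype cannot be told apart. There was 1 library per genotype. No difference between genotypes could therefore be tested against a spread between libraries, and no p-value is given. Read totals were not given in the sources used here, so that the depth of each library is unknown. All intervals are exact Clopper-Pearson intervals at 95% over the peaks of a library and cover counting error only.

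H3K27ac is the acetylation of lysine 27 of histone H3. It is deposited mainly by the acetyltransferases CBP and p300 and marks active promoters and enhancers. KAP1, encoded by Trim28 in the mouse, is the corepressor that KRAB zinc finger proteins (KZFPs) bring to their DNA targets, where it recruits the H3K9 methyltransferase SETDB1, heterochromatin protein HP1 and deacetylase complexes. MEFs are mesenchymal cells grown from embryos, rich in collagen and other matrix gene activity.

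The sequences in the middle of some of the high-scoring genotype-only peaks away from transcript starts are shown first. They show the sequence within high-scoring peaks of each class outside promoters. They come from the first ranks of peaks over 1 kb from any transcript start, ordered by score and, where scores were tied at 3100, by width. Gli2, Thsd7a and Pcdh10 were tied and stand here by width. The order at or above 3100 says little, so that these peaks are examples and not the strongest of their class. The first Kap1 KO only peak, closest to Myo5b, is described by its values only. Each sequence is given as the 300 bases around the middle of the peak on the plus strand of mm9. Capitals mark matches, on either strand, to 11 short motifs. Those of leucine zipper factors were TGANTCA for AP-1 and TGACGTCA for the cyclic AMP response element (CRE). The E-box was searched as CAGCTG, and in its other form as CACGTG. The remaining motifs were GGAATG for TEAD factors, CCGGAA for ETS factors, TGTGGT for RUNX factors, AGATAA for GATA factors, CCAAT for NF-Y, GGGGCGGGG for SP and KLF factors, and TTGGCA for NFI factors. A match is a description of letters and not a bound site, and matches for NF-Y and NFI can overlap.
Kap1 KO only peak closest to Ptger4, chr15:5226642-5226941: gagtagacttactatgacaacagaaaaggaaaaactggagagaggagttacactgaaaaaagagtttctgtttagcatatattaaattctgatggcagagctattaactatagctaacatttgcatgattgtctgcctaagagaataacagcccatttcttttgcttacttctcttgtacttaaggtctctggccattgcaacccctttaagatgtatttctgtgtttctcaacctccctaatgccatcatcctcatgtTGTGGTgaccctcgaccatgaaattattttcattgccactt
Kap1 KO only peak closest to Zbtb20, chr16:42662620-42662919: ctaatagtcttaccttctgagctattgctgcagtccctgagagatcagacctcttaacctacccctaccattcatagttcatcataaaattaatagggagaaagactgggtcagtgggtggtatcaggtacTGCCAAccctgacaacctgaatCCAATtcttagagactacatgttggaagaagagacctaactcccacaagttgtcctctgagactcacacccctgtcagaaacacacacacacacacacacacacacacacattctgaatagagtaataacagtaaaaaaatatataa
Kap1 KO only peak closest to Pcdh10, chr3:45213842-45214141: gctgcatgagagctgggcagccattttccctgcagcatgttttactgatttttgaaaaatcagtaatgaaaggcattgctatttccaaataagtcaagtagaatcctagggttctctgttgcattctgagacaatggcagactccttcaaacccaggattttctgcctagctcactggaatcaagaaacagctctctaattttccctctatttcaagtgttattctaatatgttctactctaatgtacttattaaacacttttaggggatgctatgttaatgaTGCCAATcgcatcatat
WT only peak closest to Pdpn, chr4:142868356-142868655: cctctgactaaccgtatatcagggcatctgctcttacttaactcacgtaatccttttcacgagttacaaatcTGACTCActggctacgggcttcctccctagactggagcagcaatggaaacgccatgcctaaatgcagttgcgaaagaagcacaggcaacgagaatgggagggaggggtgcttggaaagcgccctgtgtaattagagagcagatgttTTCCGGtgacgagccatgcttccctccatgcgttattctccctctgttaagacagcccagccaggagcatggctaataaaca
WT only peak closest to Gli2, chr1:121022072-121022371: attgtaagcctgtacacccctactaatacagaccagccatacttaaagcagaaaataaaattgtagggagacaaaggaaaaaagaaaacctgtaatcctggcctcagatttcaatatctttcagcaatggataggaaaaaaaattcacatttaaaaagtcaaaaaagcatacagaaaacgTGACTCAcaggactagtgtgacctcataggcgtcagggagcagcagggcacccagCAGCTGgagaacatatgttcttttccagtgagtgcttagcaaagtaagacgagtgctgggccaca
WT only peak closest to Thsd7a, chr6:12763054-12763353: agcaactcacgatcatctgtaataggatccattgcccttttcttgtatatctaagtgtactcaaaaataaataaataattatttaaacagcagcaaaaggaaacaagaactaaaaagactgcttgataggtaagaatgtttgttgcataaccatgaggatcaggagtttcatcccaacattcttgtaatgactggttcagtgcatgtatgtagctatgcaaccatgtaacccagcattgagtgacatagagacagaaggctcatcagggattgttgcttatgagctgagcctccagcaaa

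The Kap1 KO only peak closest to Ptger4, a prostaglandin E2 receptor gene, held 1 RUNX match and no AP-1 match in these 300 bases. The windows closest to Zbtb20, a zinc finger repressor gene, and to Pcdh10, a protocadherin gene, each held 1 NF-Y and 1 NFI match, overlapping in the Pcdh10 window. Among the WT only windows, those closest to Pdpn, the podoplanin gene, and to Gli2, a transcription factor of Hedgehog signalling, each held 1 AP-1 match. The window closest to Thsd7a held none of the 11 motifs. GC content ran from 38% at Ptger4 to 50.3% at Pdpn. Matches to short motifs are common. Of 300 bp windows tiled over the autosomes, 40.1% held an NF-Y match and 14.5% an NFI match. In Kap1 KO only peaks over 1 kb from any start, the shares were 32.1% and 14.5%.

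Most of the H3K27ac landscape was found in both genotypes. WT only peaks numbered 8131, 23% of the WT list (interval 22.5 to 23.4%), and Kap1 KO only peaks numbered 7945, 22.5% of the Kap1 KO list (22.1 to 22.9%). The remaining 27271 WT and 27373 Kap1 KO peaks were shared. The WT peaks covered 84.2 Mb and those of Kap1 KO cells 82.3 Mb. Both lists covered 64.4 Mb, which was 76.5% of the WT and 78.3% of the Kap1 KO bases. Genes that every cell uses sat on the shared side: all 15 housekeeping genes and all 23 genes of the KAP1 silencing machinery had a peak near a start in both genotypes. The share over all protein-coding genes was 52.5%. At Trim28 itself the peak was 4078 bp wide in WT and 4119 bp in Kap1 KO cells, both with a score of 3100. Acetylation at a start of Trim28 is no check of its deletion.

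Genotype-only peaks were narrower and weaker than shared ones. Their median width was 1195 bp for WT only and 1252 bp for Kap1 KO only, against 2298 and 2194 bp for the shared peaks of each list. The score of a peak, as written by the peak caller MACS, is -10 times the log10 of its p-value. It started at 50 and piled up at 3100, which 9743 WT and 7560 Kap1 KO peaks carried exactly, with 211 and 270 peaks above it. The order of peaks at or above 3100 therefore says little. Median scores were 121 for WT only and 129.62 for Kap1 KO only peaks, against 1499 and 1111 for the shared peaks. At or above 3100 stood 34 WT only and 68 Kap1 KO only peaks, against 9920 and 7762 shared ones.

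The share of genotype-only peaks fell with each step of the score. In the range from 50 to 80, 64.4% of WT and 59.8% of Kap1 KO peaks were genotype-only. From 400 to 1000 the shares were 16.4% and 15.6%, and at 3100 or more they were 0.342% and 0.868%. Scores under 80, the cutoff that the study's methods state, made up 27.3% of the WT only and 27% of the Kap1 KO only peaks. In the upper 50% of their own list by score stood 541 WT only peaks (6.65%) and 761 Kap1 KO only peaks (9.58%). Differences in depth between the libraries were not tested.

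**Figure D1:**
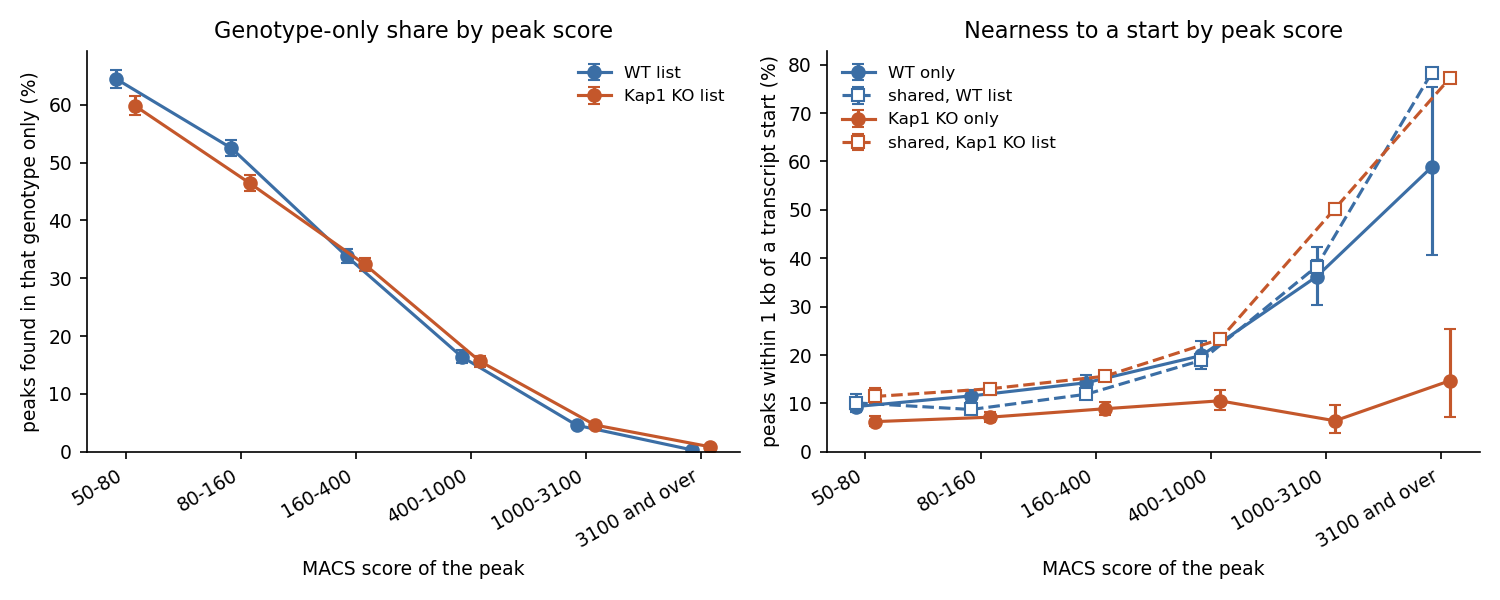
Left, percent of the peaks of each list found in that genotype only (y axis) by range of MACS score (x axis). Right, percent of peaks within 1 kb of a transcript start by the same ranges, for genotype-only peaks (filled circles) and shared peaks (open squares). Bars are exact 95% intervals of counting error. The genotype-only share falls from 64.4% and 59.8% to under 1%, and the Kap1 KO only peaks stay between 6.24% and 14.7% near a start at every score.

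Few calls rested on the edge of the 1 bp rule. In WT, 44 WT only peaks ended within 100 bp of a Kap1 KO peak, the closest at 3 bp with a score of 64.57, and 36 shared peaks overlapped by at most 100 bp, the least by 6 bp with a score of 101.87. In Kap1 KO, 27 Kap1 KO only peaks lay within 100 bp of a WT peak, the closest at 5 bp with a score of 66.19, and 28 shared peaks overlapped by at most 100 bp, the least by 2 bp with a score of 64.87. The median distance from a genotype-only peak to the other list was 12122 bp for WT only and 16473 bp for Kap1 KO only peaks. Within 100 kb of the other list lay 89.8% of WT only and 82.2% of Kap1 KO only peaks, so that the Kap1 KO only class held more peaks in stretches without any WT peak.

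Of the shared peaks, 25425 paired one to one. Over these pairs the Spearman correlation between genotypes was 0.844 for score and 0.809 for width, as a description across peaks of 2 libraries. In the 15765 pairs with both scores under 3100, the score was higher in WT in 60.8%. The median ratio of widths, Kap1 KO to WT, was 0.961. Scores at least 5 times higher were found in 972 pairs for WT and 606 pairs for Kap1 KO. Shared peaks were therefore on the whole slightly stronger in the WT library, and depth was not tested as a part of this.

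Some pairs differed greatly in width. At Pcdh7, a protocadherin gene, a WT peak of 11895 bp with a score of 3100 faced a Kap1 KO peak of 953 bp with a score of 77.28. The peak at Cxcl12, a chemokine gene of stromal cells, was 12640 bp in WT and 2134 bp in Kap1 KO. In the other direction, a WT peak of 1862 bp at 530282 bp from the start of Pcdh17 faced a Kap1 KO peak of 12767 bp, with scores of 192.98 and 3100. At a start of Hormad2, a meiotic gene, the peak had 799 bp in WT and 4982 bp in Kap1 KO, with scores of 59.33 and 3100. These 4 pairs were picked after their values were seen, from the 20 largest changes of width in each direction.

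**Figure D2:**
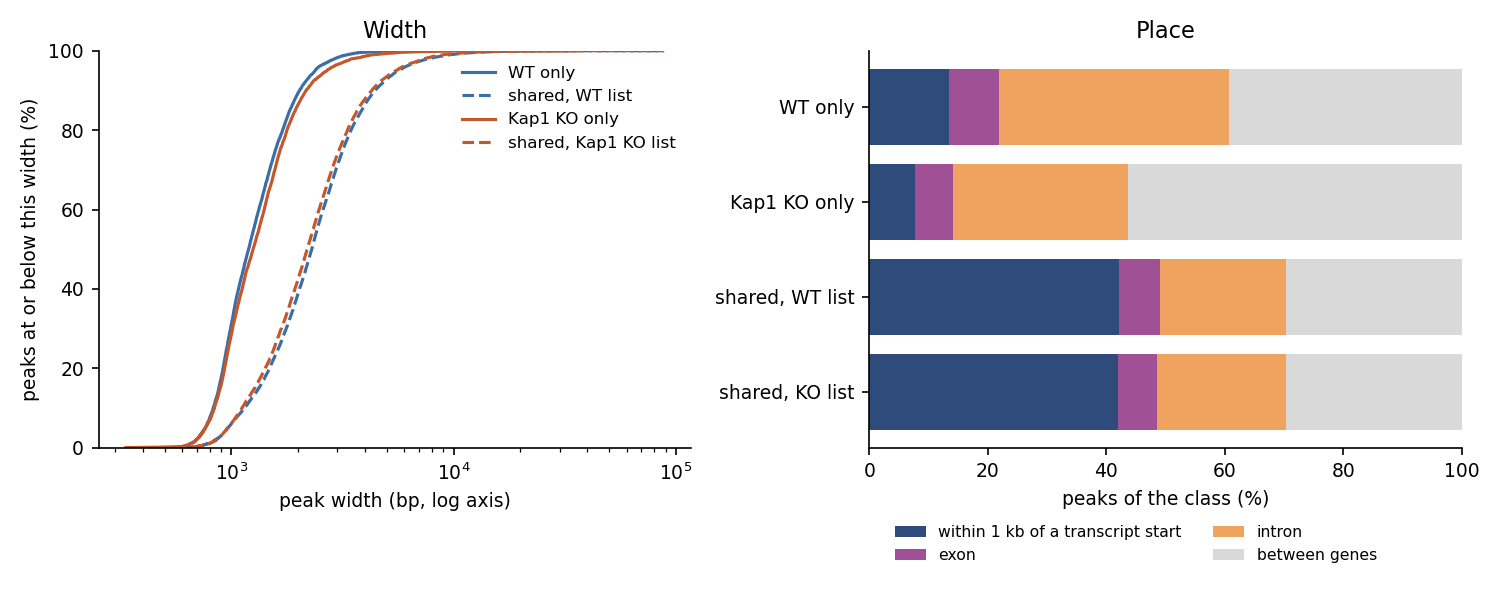
Left, cumulative percent of peaks (y axis) by width in bp on a log axis (x axis) for each class. Right, percent of the peaks of each class within 1 kb of a transcript start, in an exon, in an intron or between genes. Genotype-only peaks have medians of 1195 and 1252 bp against 2298 and 2194 bp for shared ones, and 56.3% of Kap1 KO only peaks lie between genes.

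The classes also differed in their place relative to genes. A peak was called near a start when its edge lay within 1 kb of any GENCODE transcript start. This held for 42.1% of shared WT peaks and 42.0% of shared Kap1 KO peaks. It held for 1095 WT only peaks (13.5%, 12.7 to 14.2%) and for 616 Kap1 KO only peaks (7.75%, 7.17 to 8.36%). Between genes lay 39.3% of WT only and 56.3% of Kap1 KO only peaks, against 29.7% and 29.6% of shared peaks. Introns held 38.8% of WT only and 29.6% of Kap1 KO only peaks. Kap1 KO only peaks were thus the class farthest from annotated genes, with a median of 19220 bp to the closest start, against 15357 bp for WT only and 3951 bp for shared WT peaks.

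This contrast was largest among the strong peaks. With scores from 1000 to 3100, 97 of 268 WT only peaks were near a start (36.2%, 30.4 to 42.3%), close to the 38.3% of shared WT peaks in that range. In the same range 20 of 312 Kap1 KO only peaks were near a start (6.41%, 3.96 to 9.73%), against 50.2% of shared Kap1 KO peaks. At 3100 or more, 20 of 34 WT only and 10 of 68 Kap1 KO only peaks were near a start. Strong acetylation found in WT alone was therefore often promoter-proximal, and strong acetylation found in Kap1 KO alone was mostly distal. Of the peaks near a start, protein-coding starts were involved for 83.0% of WT only and 70.3% of Kap1 KO only peaks, against 94.2% of shared WT peaks. Starts of annotated pseudogenes were involved for 4.29% of WT only, 8.93% of Kap1 KO only and 1.97% of shared WT peaks.

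Among 21418 autosomal protein-coding genes, 11252 (52.5%) had a peak near a start in both genotypes and 9311 (43.5%) in neither. A gene was called WT only when a WT only peak lay within 1 kb of one of its starts and no Kap1 KO peak lay within 1 kb of any, and the reverse for Kap1 KO only. This gave 547 WT only genes (2.55%) and 261 Kap1 KO only genes (1.22%). A shared peak reached a start in 1 genotype alone for the remaining genes, 26 in WT and 21 in Kap1 KO. Beside their genotype-only peak, 4 WT only and 3 Kap1 KO only genes also had a shared peak near another part of their starts. The median score of the genotype-only peak, over genes with an assigned name, was 232 in the 480 WT only and 166 in the 227 Kap1 KO only genes. At least 1000 was reached by 78 WT only and 11 Kap1 KO only genes, and 3100 by 15 and 0. The class concerns starts alone. Elsewhere within the gene, the other list had a peak in 140 of the 480 WT only genes (29.2%). The same held for 50 of the 227 Kap1 KO only genes (22.0%).

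The Kap1 KO only gene with the highest score was Irx1, an Iroquois homeobox transcription factor, with a peak of 3877 bp and a score of 2657 at chr13:72097682-72101558, 109637 bp from the closest WT peak. A pair of neighbouring bitter taste receptors of chromosome 6 were also among the 12 highest, Tas2r124 (score 2011, 6076 bp) and Tas2r102 (1411, 7621 bp). Their peaks lay 349140 and 341428 bp from the closest WT peak. Fcrlb, an Fc receptor-like gene of B cells, had a score of 1901, and Dusp22, a dual-specificity phosphatase, a score of 1702. A pair of neighbours of the Schlafen family on chromosome 11, known as regulators of lymphocyte growth, were Kap1 KO only: Slfn2 at 1546 and Slfn10-ps at 1009.58. The rest of the 12 highest were Cyp2c40, a cytochrome P450, at 1409, Mia2, a gene of protein export from the endoplasmic reticulum, at 1212, Hoxd3 at 1128, Ly6f, a GPI-anchored Ly6 antigen, at 1089, and Ccdc68, a coiled-coil gene of chromosome 18, at 984. The list was mixed in function, with several members of tandem gene families.

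On the WT side, 15 named genes had a score of 3100, and the 12 highest were ordered by width. Hoxa11, a limb patterning gene, came first with 4729 bp at chr6:52195698-52200426. A shared WT peak also lay near a start of Hoxa11, so that this call is less clear than the others. The Kap1 KO list had 2 peaks within the Hoxa11 gene, the closest 1199 bp from the WT only peak. Lrrc4c, which encodes a synaptic adhesion protein, had a peak of 4658 bp that lay 3014700 bp from the closest Kap1 KO peak. Cdkn2b, which encodes the CDK4/6 inhibitor p15INK4b, had a peak of 4161 bp at chr4:88953599-88957759. The divergent genes Tmie, needed in hair cells, and Als2cl shared 1 peak of 3465 bp. By width there followed Nbl1, a BMP antagonist (3209 bp), Runx3 (3067 bp) and Il25, a cytokine of the IL-17 family (3004 bp). Then came Adamts5, an aggrecanase (2836 bp), and Flt1, a VEGF receptor (2757 bp). Syde2, a GTPase-activating protein, had 2723 bp and Rftn1, a lipid raft protein, 2206 bp. The set was mixed in function, with regulators of signalling, patterning and the cell cycle among its members.

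Most fibroblast markers were acetylated at a start in both genotypes, as were some markers of other cell types. Of all protein-coding genes, 52.5% had peaks in both, 43.5% in neither, 2.55% in WT only and 1.22% in Kap1 KO only. Single genotype-only members of lists this small are not read as a result. Of 15 fibroblast markers, 13 had a peak near a start in both, among them Col1a1, Col1a2, Pdgfrb, Vim, Fn1, Twist1 and Prrx1, all with scores of 3100 in both lists. The exceptions were Dcn, which encodes the matrix proteoglycan decorin and was WT only (score 180.14, 1473 bp), and Lum, which had no peak near a start. Within the shared markers, the Col1a1 peak spanned 19303 bp in WT and 5630 bp in Kap1 KO, and the Sparc peak 7111 and 16784 bp. Pdgfra scored 3100 in WT and 1142 in Kap1 KO, whereas Thy1 scored 774 and 1256. None of the 4 hepatocyte markers had a peak near a start. Epithelial markers had none in either list except Krt8, reached by a shared WT peak. Of 6 macrophage and blood markers, Cd14 and Cd68 had a peak in both genotypes, Csf1r in Kap1 KO only (229), and Ptprc, Emr1 and Itgam in neither. Of 4 pluripotent cell markers, Dppa5a was Kap1 KO only (75.81) and Pou5f1, Nanog and Zfp42 had no peak near a start. Of 4 skeletal muscle markers, Myog was Kap1 KO only (154.47) and Myod1, Myf5 and Des had none. Neural markers had peaks in both genotypes for 3 of 4, Nes, Tubb3 and Pax6, and in neither for Sox2. Endothelial markers had peaks in both for 2 of 5, Pecam1 and Kdr, and in neither for Cdh5, Tek and Tie1. Whether other cells added to these peaks was not tested.

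Interferon response genes, which act against viruses, had the largest number of Kap1 KO only members among the 21 gene lists. Of 35 genes, 22 had a peak in both genotypes, 6 in Kap1 KO only (17.1%, against 1.22% of all protein-coding genes), 0 in WT only and 7 in neither. The 6 peaks were of low to moderate score: Mx2 at 349, Oas3 at 339, Rtp4 at 296, Oas1a at 130.31, Isg15 at 99.77 and Oasl2 at 85.27. Mx2 encodes a dynamin-like antiviral GTPase, Oas1a, Oas3 and Oasl2 belong to the oligoadenylate synthetase family, and Isg15 is a ubiquitin-like modifier. No WT peak lay within any of these 6 genes. Among all Kap1 KO peaks, 46.4% with scores from 80 to 160 and 32.4% with scores from 160 to 400 were Kap1 KO only. The members with peaks in both genotypes did not share a direction. Irf9, a subunit of the interferon-activated factor ISGF3, scored 421 in WT and 1419.9 in Kap1 KO, and Ifit1 124.74 and 349.63. By contrast, the RNA sensor Ifih1 scored 2903 and 971, Ifit3 737 and 183, and Bst2 766 and 167. Irf1, Irf3, Isg20 and Ifit2 stood at 3100 in both. The list was chosen with earlier results of these data known and was not tested as a set.

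Adjacent to this list, the guanylate-binding protein (Gbp) cluster on chromosome 5, another interferon-inducible family, lay in a run of 9 Kap1 KO only peaks over 302 kb with no other peak between them. The run overlapped Gbp4, Gbp6, Gbp8, Gbp9, Gbp10 and Gbp11, and 4 of its peaks were near a start. This run was noted after its values were seen.

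Genes of cell cycle control and of the immediate early response were almost all acetylated in both genotypes, against 52.5% of all protein-coding genes. Of 30 p53 and cell cycle genes, 29 had a peak in both, and only Cdkn2b was WT only (3.33%, against 2.55% of all protein-coding genes). Its neighbour Cdkn2a, which encodes p16INK4a and p19ARF, kept a peak of 4818 bp in WT and 4268 bp in Kap1 KO. At Mdm2, the ubiquitin ligase of p53, the peak spanned 8764 bp in WT and 33544 bp in Kap1 KO, and at Cdk4, the kinase that p16INK4a inhibits, 3635 and 17785 bp. Both genes lie in the last part of chromosome 10 described further on. AP-1 and immediate early genes had peaks in both genotypes for 26 of 28, with Batf and Batf3 in neither.

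Several lists and families of differentiation and signalling held WT only members. With 1.22% Kap1 KO only among all protein-coding genes, a count of 0 or 1 Kap1 KO only members in groups of this size is near that share and is not read as a result. Of 23 adipogenic and osteogenic regulators, 3 were WT only (13%, against 2.55% of all protein-coding genes) and 0 Kap1 KO only: Pparg, the master regulator of adipocytes, at 449, Cebpa at 117.52 and Zfp423, a preadipocyte factor, at 2625. Shared members moved in both directions in score, with Scx, a tendon factor, at 3100 in WT and 571 in Kap1 KO, and Spp1, which encodes osteopontin, at 125.26 and 1711. Wnt ligands counted 3 WT only of 19, Wnt7b at 566, Wnt1 at 244 and Wnt4 at 206, and 0 Kap1 KO only. Semaphorins, which guide axons and vessels, counted 5 WT only of 20, Sema6d at 2406, Sema3d at 399, Sema3b at 330.05, Sema4g at 145.51 and Sema6b at 71.71, and 1 Kap1 KO only, Sema3g at 133.71. Ephrins and Eph receptors counted 3 WT only of 21, Ephb2 at 1506, Epha1 at 1132 and Epha5 at 91.35, and 0 Kap1 KO only. Potassium channel genes counted 5 WT only of 79, Kcnj2 at 1494, Kcnc2 at 849, Kcnh3 at 745, Kcnj4 at 675 and Kcnn3 at 57.42, and 0 Kap1 KO only. WT only describes starts, and some of these genes held Kap1 KO peaks elsewhere. Wnt7b held 8 WT and 5 Kap1 KO peaks, Sema3d 1 and 4, and Epha5 1 and 2, whereas Wnt1, Wnt4 and Epha1 held 0 Kap1 KO peaks. All of these families were chosen with earlier results known, and none was tested as a set.

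Other developmental families are to be read against 2.55% WT only and 1.22% Kap1 KO only among all protein-coding genes. Of 39 Hox genes, 24 had peaks in both genotypes, 3 were WT only (7.69%: Hoxa11, Hoxc11 at 431 and Hoxd11 at 107.94) and 2 Kap1 KO only (5.13%: Hoxd3 and Hoxa13 at 66.19). The widest peak of both lists lay over the Hoxb cluster, with 88455 bp in WT and 88648 bp in Kap1 KO. The Hedgehog pathway counted 1 WT only and 1 Kap1 KO only gene of 14 (7.14% each). The ligand-binding antagonist Hhip was Kap1 KO only at 265, while Gli2 had a start peak in both, at 3100 in WT and 183 in Kap1 KO. Among forkhead factors, Foxd1 at 2814, Foxa1 at 372 and Foxb2 at 78.07 were WT only (3 of 40, 7.5%), and 0 were Kap1 KO only. Sox6, a factor of chondrocytes, was WT only at 1301, and Hdac9, a class II deacetylase, at 1120. Fgf21 at 176 and Fgf9 at 151.80 were Kap1 KO only (2 of 20 Fgf ligands, 10%), as was Bmp8b at 239 (1 of 10 Bmp ligands, 10%). Neither family had a WT only member. Spo11, which makes the DNA breaks of meiosis, was the single Kap1 KO only member of 28 germline genes (3.57%), at 943.

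Over all their members, genes with a Zfp symbol and olfactory receptor genes had shares near or below those of all protein-coding genes, 2.55% WT only and 1.22% Kap1 KO only. Zinc finger genes with other symbols and unannotated KZFP units are not in this count. The study reported many new H3K27ac sites in strongly dysregulated KZFP clusters of Kap1 KO MEFs, and a count by symbol does not examine those clusters. Of 358 genes with a Zfp symbol, 277 had peaks in both genotypes, 9 were WT only (2.51%) and 2 Kap1 KO only (0.559%), Zfp600 at 409.94 and Zfp558 at 259. Beside Zfp423, the WT only ones were Zfp941 at 927, Zfp667 at 433, Zfp764 at 305, Zfp791 at 293, Zfp169 at 228, Zfp13 at 202, Zfp456 at 59.75 and Zfp750 at 54.67. Of 1106 olfactory receptors, 1092 had no peak near a start, so that shares over all members are bound to be low. Among the others, 7 were Kap1 KO only (0.633% of all members), 1 was WT only (0.0904%) and 6 had peaks in both genotypes. The neighbours Olfr984 and Olfr983 scored 418 and 328, Olfr1385 scored 152.15, and Olfr136, Olfr103, Olfr116 and Olfr305 scored from 53.70 to 87.53. The WT only one, Olfr543, scored 133.44. Of 320 vomeronasal receptors, Vmn1r90 was WT only at 87.30. Clustered protocadherins, all on chromosome 18, gave 4 Kap1 KO only of 24 (16.7%), Pcdhb2, Pcdhb4, Pcdhb17 and Pcdhb18, with scores from 56.47 to 76.80. Of 48 imprinted genes, 24 had peaks in both genotypes and 24 in neither. Cytosolic ribosomal protein genes had peaks in both for 71 of 75. Of 67 replication-dependent histone genes, 64 had peaks in both, and the testis-type pair Hist1h2aa and Hist1h2ba shared 1 WT only peak at 58.64.

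Solute carriers, which move small molecules across membranes, are a large family. Of 323, 154 had peaks in both genotypes, 12 were WT only (3.72%) and 6 Kap1 KO only (1.86%), near the 2.55% and 1.22% of all protein-coding genes. The highest WT only members were Slc22a4, an organic cation carrier, at 2848, Slc38a4, an amino acid carrier, at 2626, and Slc27a1, a fatty acid carrier, at 1092. The others were Slc2a6 at 483, Slc4a4 at 411, Slc14a1 at 367, Slc2a4, the insulin-responsive glucose carrier, at 176, Slc2a5 at 143.14, and Slc26a5, Slc7a4, Slc30a3 and Slc16a9, all under 84. The Kap1 KO only members were Slc27a6 at 414, Slc6a12 at 365, Slc25a18 at 176, Slc4a5 at 154.45, Slc7a7 at 137.59 and Slc15a3 at 67.29. Slc14a1 and Slc27a6 lie on chromosome 18, Slc2a5 on chromosome 4 and Slc16a9 on chromosome 10.

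Secreted and matrix proteins had members in both classes, beside 2.55% WT only and 1.22% Kap1 KO only among all protein-coding genes. Serpins, at 3.39% and 1.69%, were near these shares. Collagens counted 3 Kap1 KO only of 41 (7.32%), Col28a1 at 244, Col19a1 at 187 and Col15a1 at 68.08, and 2 WT only (4.88%), Col10a1, a cartilage collagen, at 130.0 and Col14a1 at 52.41. Of 59 serpins, Serpine2, a thrombin inhibitor, was WT only at 1276 and Serpinb1b at 207, and Serpina6 was Kap1 KO only at 95.49. Of 27 matrix proteases and inhibitors, Adamts5 and Mmp15, at 548, were WT only (7.41%) and Adamts9, at 277, Kap1 KO only (3.70%). Of 35 interleukins, 4 were WT only (11.4%), Il25, Il16 at 106.73, Il11 at 100.15 and Il17d at 80.90, and Il24 was Kap1 KO only at 314 (2.86%). Cxcl17 was the Kap1 KO only member of 35 chemokines, at 238.

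Cytochromes P450, oxidases of steroids and foreign compounds, counted 3 Kap1 KO only of 97 (3.09%), Cyp2c40, Cyp2c69 at 733 and Cyp21a1 at 488, and 2 WT only (2.06%), Cyp1a1 at 159.71 and Cyp7b1 at 95.30. Among all protein-coding genes the shares were 1.22% and 2.55%. Single members, on which no share can rest, were WT only for Hey2, a Notch target, at 540.08 (1 of 19 Notch pathway genes), Krt16 at 326 (of 46 keratins), Fzd9 at 205 (of 10 frizzled receptors), Lhx1 at 120.85 and Tbx2 at 71.53 (each 1 of 12). Msx3 was Kap1 KO only at 52.98, 1 of 9 Dlx and Msx factors. TGF-beta pathway genes had peaks in both genotypes for 23 of 26 and gave 0 in either genotype alone.

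**Figure D3:**
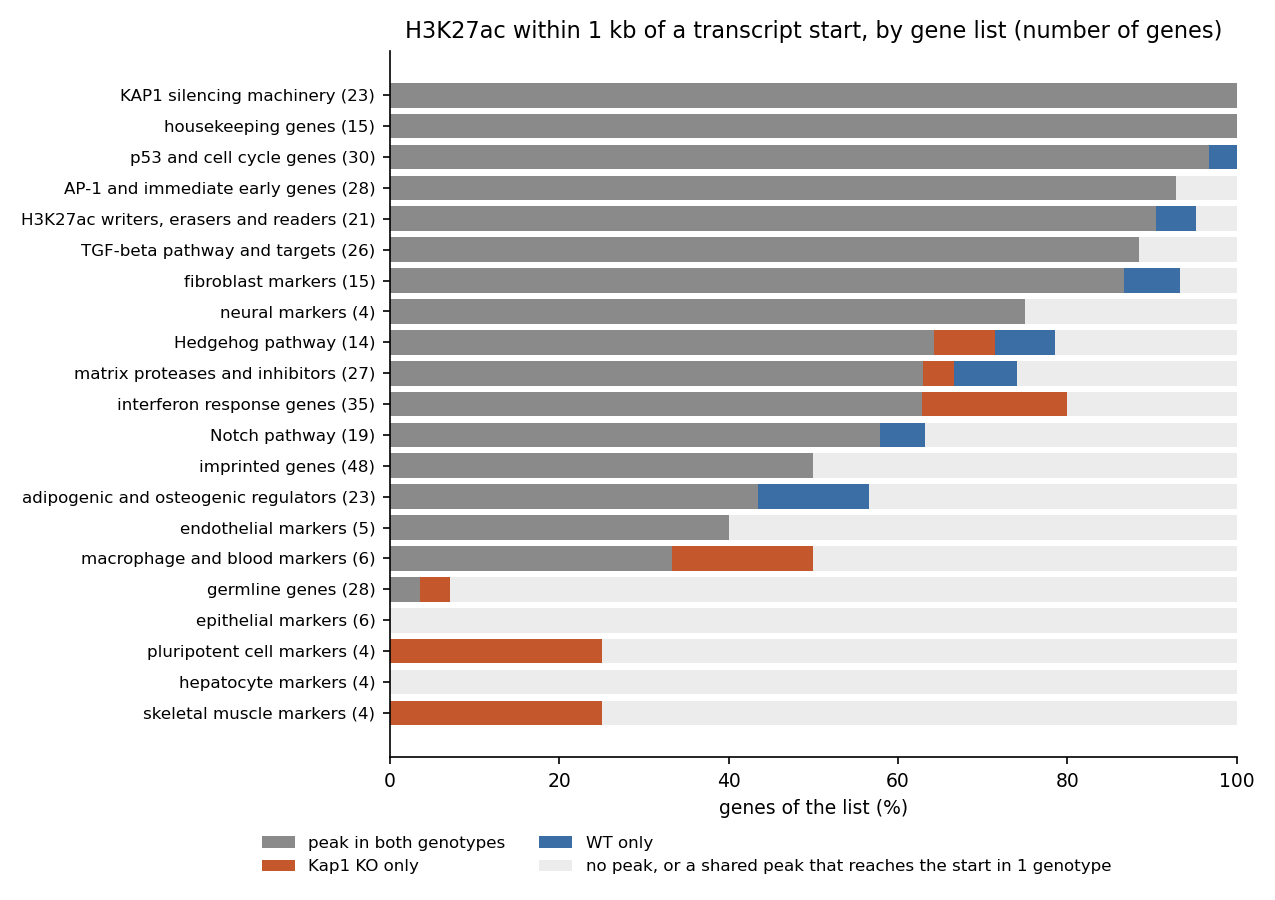
Percent of the genes of each fixed list (x axis, number of genes in brackets) with an H3K27ac peak within 1 kb of a start in both genotypes (grey), Kap1 KO only (orange), WT only (blue) or otherwise (pale). All 23 KAP1 machinery genes and all 15 housekeeping genes are grey, 6 of 35 interferon response genes are orange, and 3 of 23 adipogenic and osteogenic regulators are blue.

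Away from starts, the 6 highest Kap1 KO only peaks were taken by score and, among the many tied at 3100, by width, so that the widths of the tied ones follow from this order. They lay closest to Myo5b on chromosome 18 (3992 bp), to Ptger4 at chr15:5225443-5228140 (2698 bp), to Zbtb20 at chr16:42660709-42664830 (4122 bp), to Pcdh10 at chr3:45195801-45232183 (36383 bp), to Pcdh17 at chr14:84594780-84618745 (23966 bp) and to Pabpc4l at chr3:47038520-47057438 (18919 bp). The Pcdh10 peak began 13473 bp from a Pcdh10 start and 1018970 bp from the closest WT peak. No WT only peak was as wide as these last 3: the widest WT only peak, closest to Gli2, had 8017 bp. Widths of at least 5000 bp were reached by 54 Kap1 KO only and 6 WT only peaks. The 6 highest WT only distal peaks lay closest to Pdpn at chr4:142867023-142869988 (2966 bp), to Gli2 at chr1:121018214-121026230 (8017 bp), to Thsd7a at chr6:12760895-12765512 (4618 bp), to Dapk1, a death-associated kinase (4464 bp), to Amigo2, an adhesion molecule (4233 bp), and to Pja2, a ubiquitin ligase (4171 bp). Those at Pdpn and Amigo2 were intronic, and the other 4 lay between genes.

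Kap1 KO only peaks also gathered in runs, which were more numerous than those of WT only peaks. Runs of at least 5 consecutive genotype-only peaks of one list, with no shared peak and no peak of the other list between them, numbered 178 with 1290 peaks for Kap1 KO and 107 with 652 peaks for WT. The longest Kap1 KO run had 23 peaks over 3476 kb of chromosome 11 at Odz2, a teneurin gene. Others had 21 peaks at Gad1, Myo3b and Sp5 on chromosome 2, 20 peaks at Grm8, a glutamate receptor gene, 20 peaks at chr13:65515188-66854692 over Zfp640 and several vomeronasal pseudogenes, 18 peaks at chr4:121375407-122343526, and 13 peaks over the bitter taste receptors of chromosome 6. On chromosome 4, to either side of Zfp600, lay runs of 6, 5 and 6 Kap1 KO only peaks. They spanned chr4:145684805-145854591, chr4:146345508-146445628 and chr4:146866165-147014692, and were picked after their values were seen. The longest WT run had 17 peaks over 7136 kb at Lrrc4c. By closest protein-coding start, 24 peaks of the Kap1 KO only class lay closest to Pcdh17, against 2 of the WT only class. Grm8 and Odz2 were closest to 20 each, and to 0 WT only peaks. On the WT side, Cited2, a CBP/p300-binding transactivator, was closest to 18 WT only and 1 Kap1 KO only peaks, Efna5 to 16 and 1, and Gli2 to 13 and 0. Repeated elements were not annotated here, so that the share of these peaks on transposable elements is not given.

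The genotype-only peaks were spread unevenly over chromosomes. Chromosome 18 held 528 Kap1 KO only and 95 WT only peaks, so that Kap1 KO only made up 84.8% of its genotype-only peaks (81.7 to 87.5%). Chromosome 4 held 273 and 638 (30.0%, 27 to 33.1%) and chromosome 10 held 314 and 690 (31.3%, 28.4 to 34.2%). On the other 16 autosomes the share ran from 40.0% on chromosome 13 to 61.5% on chromosome 3. The imbalance held over most of each of these chromosomes, with exceptions: in bins of 5 Mb, the Kap1 KO only class was the larger in 17 of 19 bins of chromosome 18. The WT only class was the larger in 27 of 32 bins of chromosome 4 and in 23 of 26 bins of chromosome 10. The exceptions with the largest excess of Kap1 KO only peaks were the bin from 120 Mb of chromosome 4, with 20 more, and the bin from 125 Mb of chromosome 10, with 13 more.

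Shared peaks moved the same way on these chromosomes. Over one-to-one pairs with both scores under 3100, the median log2 ratio of scores, Kap1 KO to WT, was -0.30 on all autosomes, 0.70 on chromosome 18 (436 pairs), -0.93 on chromosome 4 (828 pairs) and -0.54 on chromosome 10 (866 pairs). The other 16 autosomes ran from -0.48 to -0.02. Peaks were wider in Kap1 KO in 79.2% of the pairs on chromosome 18 and in 21.9% on chromosome 4, against 40.3% on all autosomes. The signal of a whole chromosome thus moved with its genotype-only calls, which bears on the genotype-only genes named above. Cdkn2b, Nbl1, Runx3, Wnt4, Ephb2, Isg15, Bmp8b, Col15a1 and Zfp600 lie on chromosome 4, as does the distal peak closest to Pdpn. Dcn, Hey2, Kcnc2, Col10a1 and Cited2 lie on chromosome 10. Ccdc68, Csf1r, the clustered protocadherins and the distal peak closest to Myo5b lie on chromosome 18. The number of copies of each chromosome was not tested, and the input libraries were not analysed here.

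**Figure D4:**
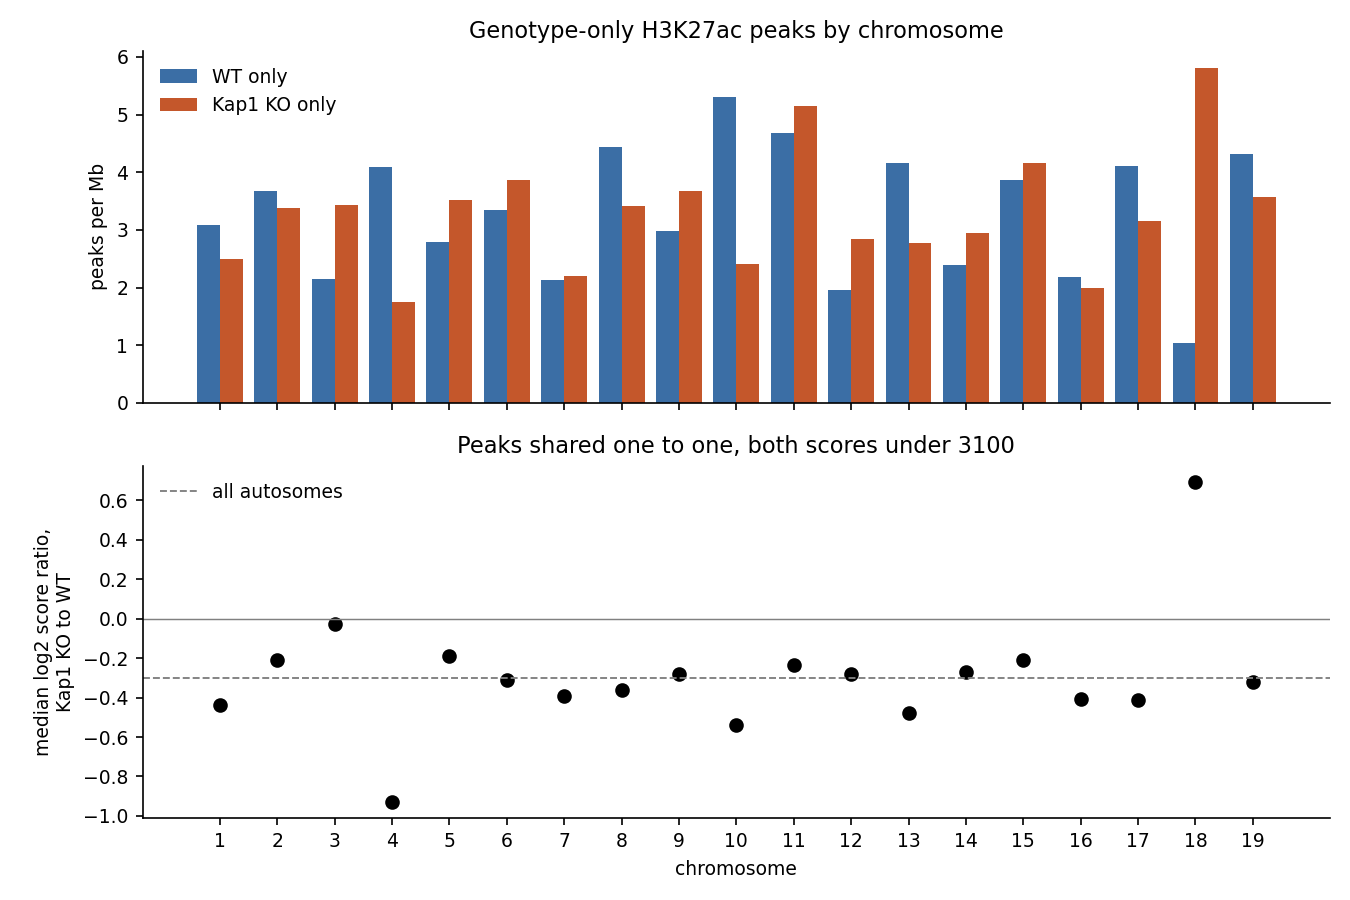
Top, WT only (blue) and Kap1 KO only (orange) H3K27ac peaks per Mb (y axis) of each autosome (x axis). Bottom, median log2 ratio of MACS scores, Kap1 KO to WT, of peaks shared one to one with both scores under 3100, with the value of all autosomes as a dashed line. Chromosome 18 stands highest for Kap1 KO in both panels and chromosome 4 lowest in the lower one, at 0.70 and -0.93.

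Within chromosome 10 a stretch near its end differed from the first 114 Mb in H3K27ac peak width. The H3K9me3 list of Kap1 KO cells held 4319 peaks, of which 1180 (27.3%) lay in 14 Mb of chromosome 10, from 114 to 128 Mb, against 223 of 14425 (1.55%) in WT. This stretch was the longest with at least 5 Kap1 KO H3K9me3 peaks in every Mb. There, 85.4% of 192 shared H3K27ac pairs were wider in Kap1 KO, with a median ratio of 1.42, against 20.9% and 0.877 over the first 114 Mb. After 128 Mb, 62.1% of 29 pairs were wider in Kap1 KO, with a median ratio of 1.12. H3K27ac peaks of the stretch covered 912 kb in WT and 1278 kb in Kap1 KO cells, although their number was 337 and 273. Of these, 80 were WT only and 53 Kap1 KO only, against 601 and 243 over the first 114 Mb and 9 and 18 after 128 Mb. The median score ratio of shared pairs under 3100 was 1.03, against 0.663 over the first 114 Mb and 1.61 over 13 pairs after 128 Mb. Mdm2, Cdk4 and Gli1 lie in the stretch. Shared H3K27ac peaks of the stretch were thus mostly broader in Kap1 KO than in WT cells, unlike those of the first 114 Mb. Fewer peaks in Kap1 KO were not particular to the stretch: the first 114 Mb held 1877 in WT and 1547 in Kap1 KO. The stretch was chosen by its Kap1 KO H3K9me3 peaks, so that their large number there follows from the choice. Copy number was not tested.

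The middle of peaks over 1 kb from any start differed in sequence between classes. AP-1 matches were found in 23.6% of WT only windows (22.6 to 24.6%), 29.8% of Kap1 KO only windows (28.8 to 30.9%) and 31.5% and 32.2% of shared WT and Kap1 KO windows, against 8.86% of 797868 windows tiled over the autosomes. AP-1 is the Fos and Jun dimer that is active in cultured fibroblasts. NFI matches were found in 18.7% of WT only (17.8 to 19.6%), 14.5% of Kap1 KO only (13.7 to 15.3%) and 16.9% and 16.8% of shared windows, against 14.5% of tiled windows. TEAD matches, at 22.1% and 21.2%, and RUNX matches, at 23.7% and 24.3%, were close between WT only and Kap1 KO only windows, and tiled windows had 15.8% and 20.2%. The median GC content was 46.3% in WT only and 45.7% in Kap1 KO only windows, against 41.7% in tiled windows. The window covers a smaller part of a wider peak, and the middle of a peak need not be its summit.

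Near starts, Kap1 KO only peaks were poor in CpG dinucleotides. At least 10 CpG in 300 bases were found in 14.9% of Kap1 KO only, 44.9% of WT only and 69.6% of shared WT windows near a start, against 2.24% of tiled windows. The median GC content of these windows was 49.0%, 55.0% and 60.0%. CpG-rich starts are typical of housekeeping and developmental genes, and CpG-poor starts of tissue-restricted ones.

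**Figure D5:**
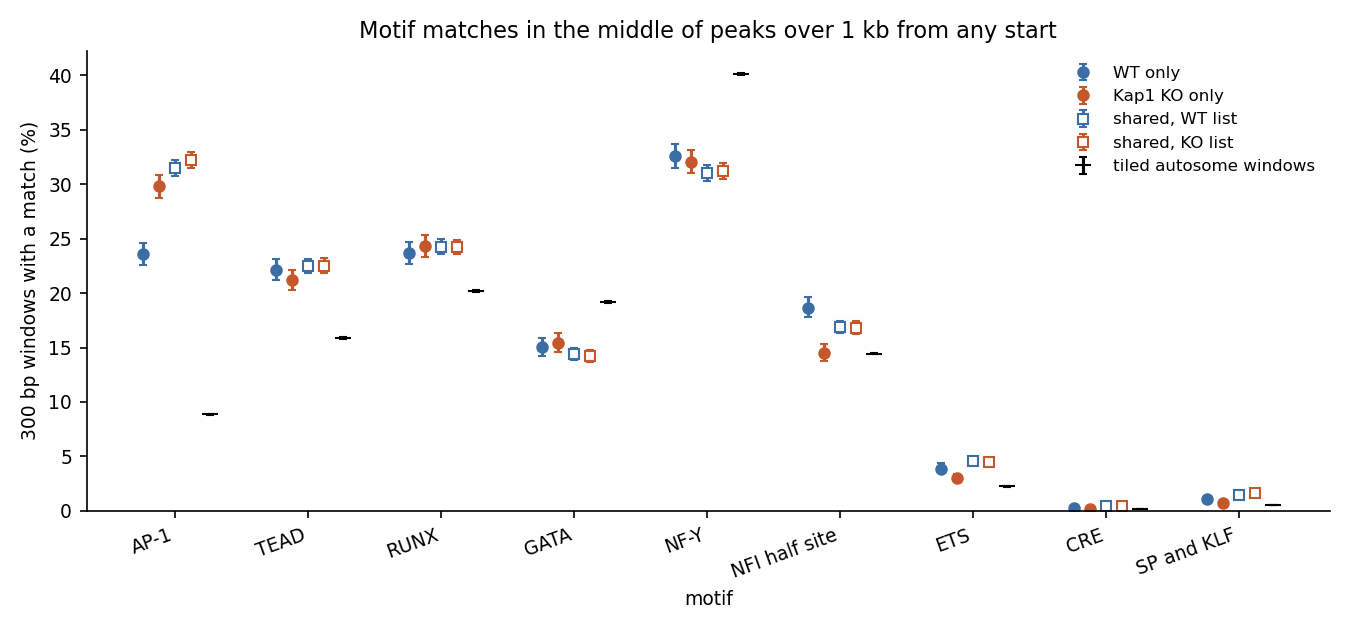
Percent of 300 bp windows in the middle of peaks over 1 kb from any start (y axis) with a match to each motif (x axis), for WT only and Kap1 KO only peaks (filled circles), shared peaks (open squares) and tiled autosome windows (dashes). Bars are exact 95% intervals of counting error. AP-1 stands at 23.6% in WT only against 29.8% in Kap1 KO only and 8.86% in tiled windows.

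The lists that did not enter the classes overlapped them to unequal extents. By the class rule, WT only and shared peaks carried H3K27ac in WT cells, and Kap1 KO only peaks had no WT H3K27ac peak. The classes were thus not alike for a second mark of WT cells. No share over genome windows was computed, so that no enrichment can be read from these shares. A WT H3K9me3 peak overlapped 404 of 7945 Kap1 KO only peaks (5.08%, 4.61 to 5.59%), 0.720% of shared Kap1 KO peaks and 29 of 8131 WT only peaks (0.357%, 0.239 to 0.512%). Per Mb of peak, these were 35.1, 2.78 and 2.66 overlapping peaks. Near starts the shares were 5.19% of Kap1 KO only, 1.55% of WT only (17 of 1095, 0.907 to 2.47%) and 0.461% of shared WT peaks. Away from starts they were 5.08%, 0.171% and 0.633%. Among Kap1 KO only peaks the share rose with the score, from 3.21% between 50 and 80 to 15.8% at 1000 or more. Of the 404 peaks, 263 lay between genes, 88 in introns and 32 near a start, and by chromosome they were most frequent on chromosome 8, at 11.1%. They touched 463 WT H3K9me3 peaks, 3.24% of the 14273 autosomal peaks of that list. A small part of the Kap1 KO only acetylation thus lay where WT cells carried H3K9me3. H3K9me3 peaks of Kap1 KO cells overlapped 26 WT only peaks (0.320%, 0.209 to 0.468%) and 13 Kap1 KO only peaks (0.164%, 0.0872 to 0.280%). These counts are small and their intervals overlap. Shared WT peaks had 0.0697%.

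KAP1 peaks of Hepa 1.6 cells, another cell type, overlapped 466 of 7329 Kap1 KO only peaks away from starts (6.36%, 5.81 to 6.94%) and 120 of 7036 WT only peaks (1.71%, 1.42 to 2.04%). Shared peaks away from starts had 6.34% and 6.45%, as the Kap1 KO only ones, although they were wider: per Mb of peak there were 44.3 overlapping Kap1 KO only, 12.9 WT only and 27.9 shared WT peaks. Near starts the shares were 8.28% of Kap1 KO only and 7.40% of WT only peaks, and 29.5% of shared WT peaks.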

How the data were processed

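Per the labels and the study's methods, reads were mapped to mm9 with Bowtie 2 version 2.2.1 in its sensitive-local mode, and MACS 1.4 called the peaks with total input as control, 1 library per condition. The authors deposited peak lists, whose score column is the MACS score (-10 times the log10 p-value). The MEF H3K27ac lists started at a score of 50, below the stated cutoff of 80, and were used whole.

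Autosomal peaks were classed by an overlap of 1 bp (checked against bedtools 2.31.1, and on simulated lists). Transcript starts and genes came from the GENCODE annotation of NCBIM37 (mm9), sequence from the same build. Genes were named by rule: the 12 highest-scoring genotype-only coding genes per genotype (unnamed Gm and Rik symbols left out), the 6 highest distal peaks, and the genotype-only members of 21 gene lists and 31 families. Members, lists and rules were chosen with earlier results of these data known. Analyses used Python 3.11.15, pandas 2.3.3 and scipy 1.17.1. Alternatives covered score, overlap, distance to a start and chromosomes. The SETDB1 list was not used here. A few members of the gene lists are not reported here.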

Additional observations from a re-analysis of the deposited data

Results flagged for a closer look

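Chromosome X was outside the comparison, and peaks there would count as genotype-only by the same rule. The WT list had 873 peaks on chromosome X, of which 138 (15.8%) were WT only. The Kap1 KO list had 1118, of which 377 (33.7%) were Kap1 KO only. On the autosomes the shares were 23% and 22.5%. The input libraries were not analysed here, and the number of X chromosomes per cell was not tested.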

How the results depend on the processing

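No paired analysis was possible because each genotype had 1 H3K27ac library. WT only genes outnumbered Kap1 KO only genes under all 7 alternatives run for them (1.60 to 2.39 times, 2.10 as reported), and WT only peaks were the ones more often near a start under all 8 (1.44 to 2.58 times, 1.74 as reported). Numbers of genes stayed within 1.5 times of those reported.

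The shares of WT only and Kap1 KO only peaks were 21.8% and 20.9% with scores of at least 80 in both lists, 21.4% and 21.0% with peaks within 1 kb counted as shared, and 21.9% and 23.3% without chromosomes 4 and 10. They fell to 15.1% and 14.6% between the upper 50% of both lists by score, and to 3.06% and 4.31% when the upper 50% of a list was set against the whole other list. Without chromosome 18, an alternative added after seeing the data like the others on that chromosome, the Kap1 KO only share was 21.8%, and without chromosomes 4, 10 and 18 the WT only share was 22.2%.

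The shares near a start, WT only before Kap1 KO only, were 14.7% and 8.67% with scores of at least 80, 11.4% and 5.90% at 500 bp, 19% and 13.2% at 2500 bp, 11.2% and 5.45% for protein-coding starts only, and 25% and 9.71% for genotype-only peaks with a score of at least 400 (added after seeing the data). Between the upper 50% of both lists, also added then, Kap1 KO only peaks made up 23.2% of the genotype-only peaks of chromosome 4, 35.2% of chromosome 10 and 89.8% of chromosome 18. The cause of these changes was not tested.

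One library per genotype and unknown depth limit every contrast: peaks just under a threshold are in no list, and scores at 3100 or more cannot be ranked. Clone, passage and genotype cannot be told apart, and chromosome copies were not tested.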

Other observations

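Noncoding genes went in both directions, beside 2.55% WT only and 1.22% Kap1 KO only among protein-coding genes. Of 1232 autosomal lincRNA genes, 672 had a peak near a start in both genotypes, 49 were WT only (3.98%) and 21 Kap1 KO only (1.70%). Of 1458 snoRNA genes, 11 were WT only (0.754%) and 29 Kap1 KO only (1.99%). Of 4055 pseudogenes, 47 were WT only (1.16%) and 53 Kap1 KO only (1.31%).

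Shared starts with large differences in score were also found among matrix enzymes. Adamts4, an aggrecanase, scored 545 in WT and 3100 in Kap1 KO, with peaks of 2060 and 6229 bp. Mmp19 scored 206 and 1383, whereas Adamts2, the procollagen N-proteinase, scored 1894 and 255. Adamts5 was WT only at 3100 and Adamts9 Kap1 KO only at 277, so that the aggrecanase genes went both ways. These genes were picked after their values were seen.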
